A study of Mus musculus with 12 samples.

Results

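The libraries described here profile the normal ventricular zone of the mouse dorsal cortex at 2 embryonic ages, E13.5 and E16.5. They are the 3 libraries titled E16.5, p18mKO2- and the 3 titled E13.5, p18mKO2-, which makes 6 of the 12 libraries of the series, and they were chosen by these titles alone. The mice came from a line with a knock-in at ROSA26, in which a stop sequence flanked by loxP sites precedes a cassette for the kinase inhibitor p18 joined by P2A to the fluorescent protein mKO2. All groups, the p18mKO2- ones included, received tamoxifen by intraperitoneal injection, and the labels give the genotype of the p18mKO2- groups as normal and that of the p18mKO2+ groups as p18mKO2 over-expression. The Cre driver, the strain and the day of injection are not stated in what was used here. Tissue was cut by laser microdissection (LMD) and the libraries were made from polyadenylated RNA. Whether the 3 replicates of a stage came from different embryos is not stated in the labels, and p-values therefore reflect only how far these libraries vary, which may be technical variation. The study asked how cyclin-dependent kinase inhibitors bear on the switch of the cortex from making neurons to making astrocytes, and the p18mKO2- groups give the normal course of that interval.

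Next to the lateral ventricle, the ventricular zone consists mainly of radial glia, the stem cells of the cortex. Radial glia divide at the ventricular surface and keep themselves undifferentiated through Notch signalling. They give rise, directly or through intermediate progenitors, first to the neurons of the deep cortical layers, then to those of the upper layers, and later to astrocytes. The genes below are ordered by these roles: the cell cycle, progenitor identity and Notch, timing genes, neurons, glia, signalling, chromatin and metabolism, and cells of other origin.

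Levels are given in CPM, the usual unit of read counts scaled to a common library total, here after TMM, a correction for differences in composition. A gene was called when the Benjamini-Hochberg adjusted p of edgeR's quasi-likelihood test over all 16798 genes tested was under 0.05, and every adjusted p below is of this kind. Log2 changes are E16.5 minus E13.5, with their standard error (SE). The libraries held between 17101971 and 20405792 estimated counts. Of all genes tested, 16.4% were called higher at E16.5 and 13.4% lower, together 29.8%, and 40.4% had groups that did not overlap. The median log2 change over all genes was -0.02. These shares are the background against which the counts within each gene list are to be read. The lists were chosen with earlier results of these data known, so counts above the background may be partly built in. The background was not matched on expression, and it depends on the filter. With a mean CPM of at least 5, 4685 of 11385 genes were called. Because these are bulk samples, fewer cells of a type and less RNA per cell cannot be told apart.

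As a check of the labelled tissue, the 25 radial glia genes summed to 6225, 5840 and 6338 CPM at E13.5 and 4638, 4819 and 3954 CPM at E16.5, with none of them at 0 in either stage. Neuronal genes were present at both stages. The 20 pan-neuronal genes summed to 5386, 4697 and 4619 CPM at E13.5, below the radial glia sums. At E16.5 they summed to 12055, 11159 and 15419 CPM, above the radial glia sums. Some libraries differed from the others of their stage. Transcripts of 4 Y-linked genes summed to 161.768 CPM before TMM in replicate 2 of E16.5 and to 0.422 CPM or less in the other 5 (Eif2s3y: 0, 0 and 0 CPM at E13.5 and 0.0614, 52.7 and 0.174 CPM at E16.5). Replicate 2 of E16.5 had 3.41 CPM of Xist against 1536 to 1937 CPM in the other 5. Replicate 3 of E16.5 had 8.28% of its counts in mitochondrial genes, against 3.47% to 4.45% in the other 5. The ribosomal RNA gene CT010467.1 took 5.324% to 8.797% of the counts at E13.5 and 6.281% to 13.583% at E16.5. Replicate 2 of E13.5 held more choroid plexus and ependyma transcripts than the other E13.5 libraries (list sums of 124, 522 and 242 CPM). It also had the most Wnt8b and Rspo1, while the Cajal-Retzius and hem list summed to 152, 156 and 129 CPM at E13.5. The first principal component of the 6 libraries (48.8% of the variance) separated the stages. On the second component (18.6%), replicate 2 was highest and replicate 3 lowest at both stages.

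**Figure D1:**
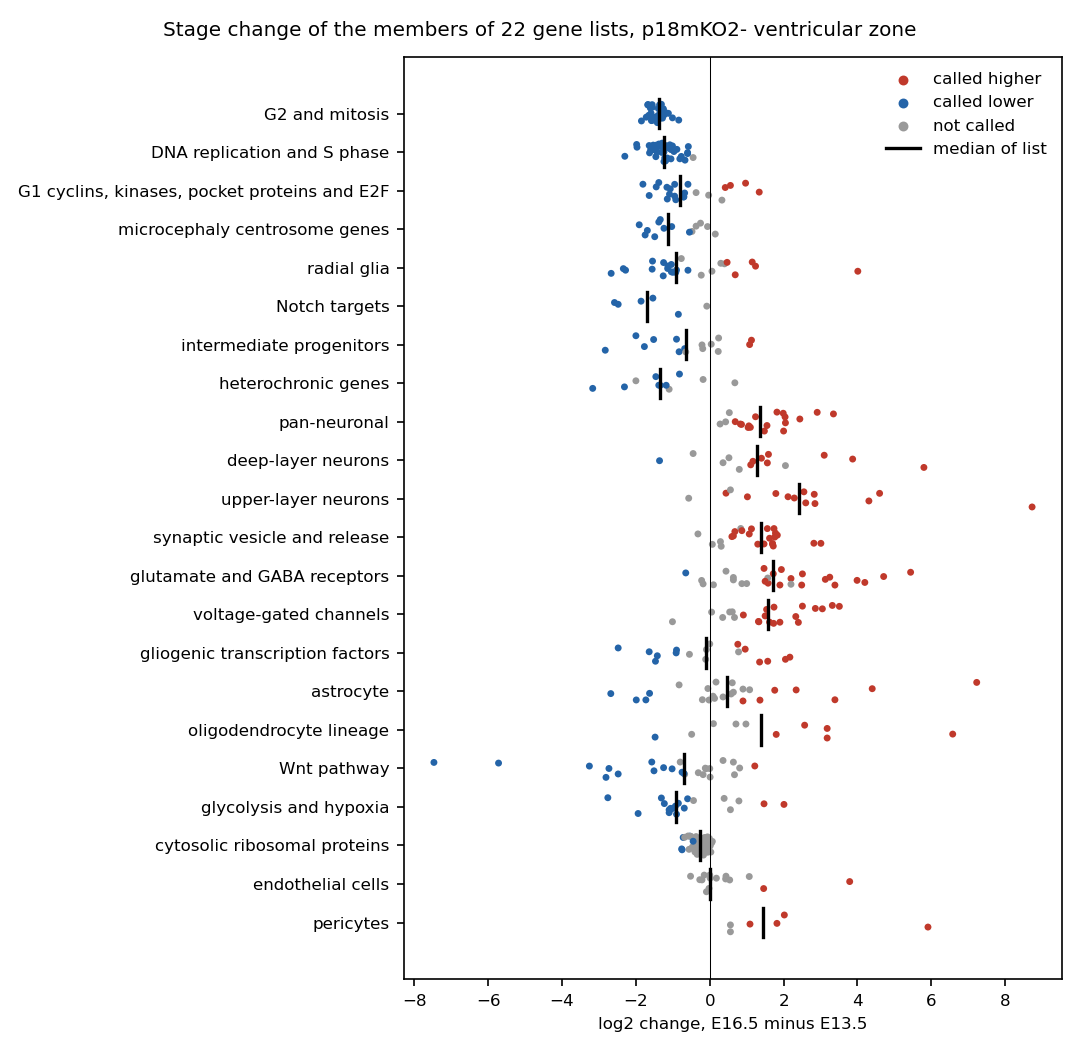
Log2 change from E13.5 to E16.5 (x axis) of each tested member of 22 gene lists (rows). Each point is a gene, red where it was called higher, blue where it was called lower and grey where it was not called; black bars are list medians, which run from -1.7 for Notch targets to 2.42 for upper-layer neurons.

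The ventricular zone at E16.5 held far fewer transcripts of the dividing cell. Every one of the 32 genes of G2 and mitosis tested fell, with a median log2 change of -1.39, and 41 of 42 replication and S phase genes fell while none rose, with a median of -1.24. Mki67, which encodes the proliferation marker Ki-67, stood at 886, 927 and 977 CPM at E13.5 and 408, 335 and 301 CPM at E16.5, a log2 change of -1.42 ± 0.15 (SE; adjusted p = 1.95e-05). Its groups were separated by a wide gap. Ube2c, the ubiquitin-conjugating enzyme that starts the destruction of mitotic cyclins, had 219, 245 and 226 CPM at E13.5 and 74.8, 71.5 and 45.7 CPM at E16.5, a log2 change of -1.85 ± 0.2 (SE; adjusted p = 1.73e-05). Ccnb2, a mitotic cyclin, went from 94.6, 94 and 85.5 CPM at E13.5 to 34.1, 37 and 22 CPM at E16.5, a log2 change of -1.56 ± 0.19 (SE; adjusted p = 4.54e-05). In both genes the lowest value was that of replicate 3 at E16.5 and the other E16.5 libraries were close to each other.

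Among the replication genes, Mcm5, a subunit of the helicase that opens DNA at origins, had 178, 199 and 144 CPM at E13.5 and 82.3, 85.2 and 33 CPM at E16.5, a log2 change of -1.38 ± 0.28 (SE; adjusted p = 0.00213). Orc1, the largest subunit of the origin recognition complex, had the largest decrease of the list at -2.3 ± 0.39 (adjusted p = 0.000528). Cdt1, which loads the helicase, changed by -1.97 ± 0.28 and Ccne1, the cyclin of S phase entry, by -1.98 ± 0.27. The member that was not called was Orc6, at -0.45 ± 0.21 (adjusted p = 0.13), named here after its values were seen. It was called without replicate 3 of E16.5 (-0.68, adjusted p = 0.0192) and with the replicate block (-0.47, adjusted p = 0.0236). The summed level of the S phase list was 4349, 4693 and 4173 CPM at E13.5 and 2169, 2184 and 1434 CPM at E16.5. Replicate 3 of E16.5 was the lowest of the 6. Without it 40 S phase genes and 32 G2 genes were still called lower, and with the 6 libraries fitted alone 38 and 32.

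The promoters of these genes are shown because members of the G2 list fell together and their promoters share known cell cycle elements. In such promoters the CHR element, with the letters TTTGAA, and the CCAAT box are bound by the DREAM complex and NF-Y, while E2F sites (searched here as TTTGGCGC and TTTCCCGC) mark genes of the G1 to S transition. Windows run from position -250 to 49 with 0 at the first transcribed base, are RefSeq sequences of GRCm38.p6, and were searched on both strands. Windows were found for 26 of the 32 G2 genes (28 windows) and for 33 of the 42 S phase genes (37 windows). The last 150 bases of the windows of the 4 G2 genes with the smallest p are, with CHR and CCAAT letters in capitals:
Kif23 (chr9:61946750-61946899, minus strand): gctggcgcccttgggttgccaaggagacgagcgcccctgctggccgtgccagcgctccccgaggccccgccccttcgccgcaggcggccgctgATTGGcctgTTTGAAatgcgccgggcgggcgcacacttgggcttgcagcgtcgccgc
Ncapg (chr5:45669825-45669974, plus strand): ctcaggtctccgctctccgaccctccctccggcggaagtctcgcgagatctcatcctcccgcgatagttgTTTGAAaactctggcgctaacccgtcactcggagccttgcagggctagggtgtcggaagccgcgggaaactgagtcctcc
Ube2c (chr2:164769829-164769978, plus strand): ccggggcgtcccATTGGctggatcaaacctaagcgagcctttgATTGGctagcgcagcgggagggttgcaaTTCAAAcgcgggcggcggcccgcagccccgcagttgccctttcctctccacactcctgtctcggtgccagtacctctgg
Mki67 (chr7:135716330-135716479, minus strand): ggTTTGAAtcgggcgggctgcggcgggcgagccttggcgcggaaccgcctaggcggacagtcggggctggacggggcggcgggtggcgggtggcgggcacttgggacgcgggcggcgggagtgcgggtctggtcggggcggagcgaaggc

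The CHR letters lay in all 4 stretches on 1 strand or the other, as TTTGAA at offset 2 in Kif23 and as the reverse complement TTCAAA at offset -29 in Ube2c. Kif23 and Ube2c also held CCAAT as its reverse complement. Over the whole windows, 78.6% of the G2 windows (22 of 28) held TTTGAA, 82.1% held CCAAT and 71.4% (20 of 28) held both. The same shares were 17.9%, 37.4% and 6.95% over all 32851 promoters of the table and 12%, 37.6% and 4.98% over those of genes tested. Windows of all genes called lower held both elements in 8.52% and those of genes called higher in 3.06%. Of the S phase windows 8.11% held both of these elements, and 27.0% (10 of 37) held an E2F site, against 1.56% of all promoters and 2.7% of the windows of genes tested. Mcm5 is an example, with its E2F letters in capitals at offset -149:
Mcm5 (chr8:75109259-75109558, plus strand): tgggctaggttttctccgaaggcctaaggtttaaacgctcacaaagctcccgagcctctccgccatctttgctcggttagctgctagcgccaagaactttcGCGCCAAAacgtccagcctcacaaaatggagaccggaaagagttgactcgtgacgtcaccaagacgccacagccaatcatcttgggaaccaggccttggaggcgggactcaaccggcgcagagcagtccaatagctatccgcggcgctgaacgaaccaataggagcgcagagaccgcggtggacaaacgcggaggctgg
E2F letters were in 5.24% of the windows of genes called lower and 1.34% of those of genes called higher. A match says only that the letters are there, and binding was not measured.

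The machinery of G1 moved less uniformly. Of 22 G1 cyclins, kinases, pocket proteins and E2F factors, 15 fell and 4 rose. Ccnd2, the D-type cyclin of cortical progenitors, had 1211, 1213 and 1006 CPM at E13.5 and 671, 698 and 437 CPM at E16.5, a log2 change of -0.92 ± 0.2 (SE; adjusted p = 0.00361), and Ccnd1 changed by -1.07 ± 0.23. Rbl1, the pocket protein p107 that is itself an E2F target, fell by 1.64 on the log2 scale, and E2f2, an activator E2F, had 31.4, 48.3 and 24.7 CPM at E13.5 and 11.2, 10.3 and 8.29 CPM at E16.5, a log2 change of -1.81 ± 0.27 (SE; adjusted p = 0.000187). Mycl, a MYC family factor, rose, with 55.7, 54.3 and 51.8 CPM at E13.5 and 162, 149 and 97.1 CPM at E16.5, a log2 change of 1.34 ± 0.17 (SE; adjusted p = 6.55e-05), while Mycn, the MYC factor of neural progenitors, had 141, 145 and 144 CPM at E13.5 and 125, 119 and 177 CPM at E16.5 and was not called (-0.03 ± 0.19, adjusted p = 0.929).

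Among the kinase inhibitors, Cdkn1b (p27), which accumulates in cells that leave the cycle, rose from 185, 163 and 169 CPM at E13.5 to 261, 246 and 341 CPM at E16.5, a log2 change of 0.71 ± 0.18 (SE; adjusted p = 0.00807). Cdkn1a (p21) fell, with 12.7, 24.9 and 12 CPM at E13.5 and 4.91, 7.22 and 3.48 CPM at E16.5, a log2 change of -1.66 ± 0.33 (SE; adjusted p = 0.0018). Cdkn1c (p57) was at 107, 80.9 and 119 CPM at E13.5 and 43.3, 56.3 and 111 CPM at E16.5, where replicate 3 of E16.5 lay within the E13.5 range, and was not called (adjusted p = 0.19); without that library it was called, at -1.03 ± 0.23 (adjusted p = 0.00485), as it was with the replicate block (-0.62, adjusted p = 0.044) and with no filter (-0.51, adjusted p = 0.0383). Cdkn2c, the gene of p18, had 27.6, 24.6 and 17.7 CPM at E13.5 and 22.5, 31.8 and 15.1 CPM at E16.5 and a log2 change of -0.01 ± 0.26 (adjusted p = 0.98), and Cdkn2d (p19) had 0.1 ± 0.2. Cdkn2a and Cdkn2b did not pass the filter on low counts, with 1 and 2 libraries above 0. Of 14 centrosome and spindle genes whose loss causes microcephaly, 9 fell and none rose. Aspm, which holds the spindle pole together in dividing radial glia, had 136, 148 and 138 CPM at E13.5 and 65.2, 50.2 and 34.9 CPM at E16.5, a log2 change of -1.49 ± 0.2 (SE; adjusted p = 8.9e-05). Wdr62, another spindle pole protein, changed by -1.91 ± 0.26, and Cit, the kinase of the last step of cell division, by -1.75 ± 0.26.

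Progenitor identity genes fell as well, but not all of them. Of 25 radial glia genes, 15 fell and 5 rose (median -0.92). Sox2, which keeps neural stem cells undifferentiated, had 176, 200 and 205 CPM at E13.5 and 78.9, 74.9 and 88.7 CPM at E16.5, a log2 change of -1.26 ± 0.14 (SE; adjusted p = 2.18e-05). Pax6, the factor of dorsal progenitors, had 183, 177 and 259 CPM at E13.5 and 125, 128 and 75.1 CPM at E16.5, a log2 change of -0.92 ± 0.21 (SE; adjusted p = 0.00464). Emx2, which sets the caudal and medial identity of cortical progenitors, changed by -1.56 ± 0.16 (adjusted p = 1.36e-05). Sox3 and Dach1, both progenitor transcription factors, had log2 changes of -2.34 ± 0.29 and -2.28 ± 0.28.

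Id4, an inhibitor of basic helix-loop-helix factors, was among the 12 genes with the smallest p of all. It had 647, 655 and 729 CPM at E13.5 and 109, 100 and 111 CPM at E16.5, a log2 change of -2.67 ± 0.15 (SE; adjusted p = 1.09e-07). Other members rose: Tnc, an extracellular matrix protein of the germinal zones, had 16.6, 15.8 and 16.6 CPM at E13.5 and 233, 317 and 238 CPM at E16.5, a log2 change of 4.01 ± 0.23 (SE; adjusted p = 1.23e-07), and Ptprz1, a receptor phosphatase that binds it, had 270, 285 and 292 CPM at E13.5 and 616, 738 and 651 CPM at E16.5, a log2 change of 1.24 ± 0.12 (SE; adjusted p = 9.48e-06). Slc1a3, the glutamate transporter GLAST, rose by 0.69 ± 0.17. Hopx, the marker of human outer radial glia, stayed between 6.49 and 12.2 CPM in the 6 libraries and was not called (adjusted p = 0.923).

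Genes of the apical surface were mixed, with 8 of 16 lower and 2 higher. Crb2, of the Crumbs complex at the apical membrane, had 74, 66.7 and 57.3 CPM at E13.5 and 22, 14.5 and 6.08 CPM at E16.5, a log2 change of -2.22 ± 0.36 (SE; adjusted p = 0.000455). Replicate 3 of E16.5 was at 6.08 CPM, below the other E16.5 libraries. Cdh2, N-cadherin of the adherens junction, rose by 0.84 ± 0.14 and Fat4, a giant cadherin of planar polarity, by 0.95 ± 0.14. Intermediate progenitor genes were split. Eomes (Tbr2), their defining factor, had 446, 212 and 428 CPM at E13.5 and 386, 307 and 247 CPM at E16.5 and was not called (adjusted p = 0.658). The proneural factor Neurog2 fell (-0.83 ± 0.23), a call that was lost without replicate 3 of E13.5 (-0.54, adjusted p = 0.0852) or without replicate 2 of E16.5 (-0.76, adjusted p = 0.0621). Its relative Neurog1 also fell, with 28.5, 22 and 30.2 CPM at E13.5 and 6.32, 3.82 and 1.22 CPM at E16.5, a log2 change of -2.83 ± 0.45 (SE; adjusted p = 0.000338). Nhlh1, a factor of newborn neurons, changed by -2.0 ± 0.33 and Gadd45g by -1.52 ± 0.24.

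Notch signalling works between neighbouring cells: Delta and Jagged ligands on one cell activate receptors on the next, and the freed receptor domain joins RBPJ to switch on the HES and HEY repressors. Among 5 ligands, Dll1, the main ligand of cortical progenitors, fell from 115, 107 and 144 CPM at E13.5 to 34.9, 26.2 and 22.6 CPM at E16.5, a log2 change of -2.13 ± 0.18 (SE; adjusted p = 2.25e-06). Dll3, a ligand that acts inside the cell, changed by -0.71 ± 0.18, a call that was lost with the 6 libraries alone (adjusted p = 0.0544) and with no filter on low counts (adjusted p = 0.0779). Jag2 rose by 1.13 ± 0.25, with 10.2, 12.3 and 11.1 CPM at E13.5 and 22.9, 23.2 and 27.1 CPM at E16.5. Of 13 receptors and modulators, 5 fell. Notch1 had 241, 264 and 209 CPM at E13.5 and 169, 128 and 53.7 CPM at E16.5, a log2 change of -1.02 ± 0.3 (SE; adjusted p = 0.0176), and Notch3 changed by -1.71 ± 0.28. Notch1 just missed the threshold without replicate 1 or replicate 2 of E13.5 (adjusted p = 0.0514 and 0.056) and with the 6 libraries alone (adjusted p = 0.0541). The count of 5 rests on single libraries, since it was 2 without replicate 1 or without replicate 2 of E13.5, and 3 without any of replicate 3 of E13.5, replicate 2 of E16.5 and replicate 3 of E16.5.

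Of 6 target genes, 5 fell, in every fit that left out a library. Hes5, the repressor most closely tied to Notch in radial glia, had 49.4, 39.6 and 51.2 CPM at E13.5 and 9.95, 7.53 and 7.59 CPM at E16.5, a log2 change of -2.48 ± 0.23 (SE; adjusted p = 6.42e-06). Hes1 had 40.8, 41.6 and 49.5 CPM at E13.5 and 15.9, 12.6 and 7.88 CPM at E16.5, a log2 change of -1.86 ± 0.29 (SE; adjusted p = 0.000334). Hey1 changed by -1.54 ± 0.23 and Hey2 by -2.58 ± 0.54. The Hes5 window is shown because it holds the letters TGGGAA of an RBPJ site on both strands, as TGGGAA at offset -82 and as TTCCCA at offset -226:
Hes5 (chr4:154960673-154960972, plus strand): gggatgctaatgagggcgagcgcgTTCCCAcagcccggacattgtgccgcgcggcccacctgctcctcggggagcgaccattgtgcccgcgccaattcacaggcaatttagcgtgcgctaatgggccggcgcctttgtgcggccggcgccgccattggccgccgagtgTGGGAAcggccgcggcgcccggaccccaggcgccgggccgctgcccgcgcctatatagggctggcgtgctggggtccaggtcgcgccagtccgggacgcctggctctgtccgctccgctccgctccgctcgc
These short letters occur in 25.6% of all promoters and in 23.8% of the windows of genes called lower, so their presence sets no gene apart.

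**Figure D2:**
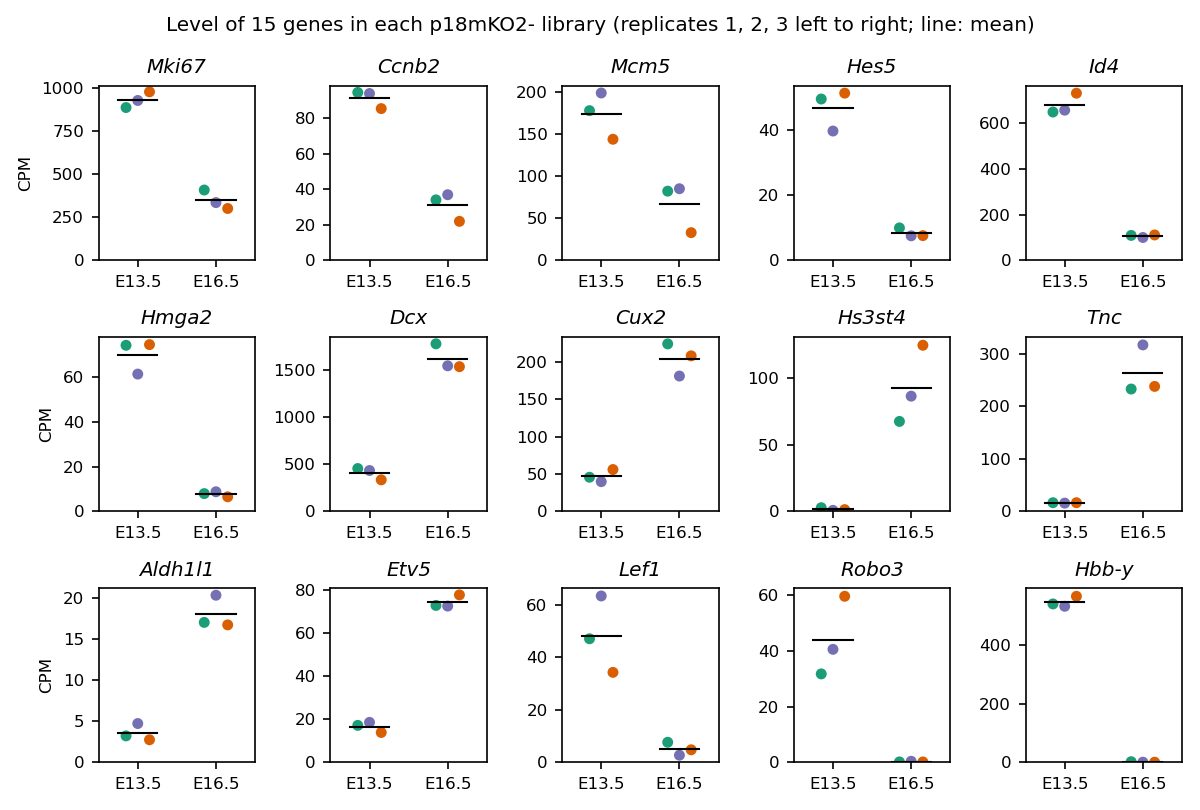
Level in CPM (y axis, from 0) of 15 genes in each library, with E13.5 on the left and E16.5 on the right of each panel. Points are replicates 1, 2 and 3 from left to right and lines are means; Id4 lies at 647 to 729 CPM at E13.5 and at 100 to 111 CPM at E16.5, and Tnc at 15.8 to 16.6 and 233 to 317 CPM.

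Several timing genes that mark young progenitors fell. Of 11 tested, 7 fell and none rose (median -1.34). Hmga2 (GRCm38 chromosome 10, 120361275 to 120476469), a chromatin protein of young stem cells, had 74.4, 61.5 and 74.7 CPM at E13.5 and 7.98, 8.8 and 6.55 CPM at E16.5, a log2 change of -3.17 ± 0.23 (SE; adjusted p = 8.34e-07). The RNA-binding proteins Igf2bp1 and Igf2bp2 changed by -1.46 ± 0.18 and -1.34 ± 0.15, and Hmgb2, a chromatin protein of cycling progenitors, had 674, 686 and 996 CPM at E13.5 and 256, 322 and 327 CPM at E16.5, a log2 change of -1.38 ± 0.2 (SE; adjusted p = 0.000155). Lin28b, which blocks the maturation of let-7, had 7.11, 5.37 and 5.56 CPM at E13.5 and 1.29, 0.509 and 6.61 CPM at E16.5. Its replicate 3 at E16.5 lay within the E13.5 range while the other E16.5 libraries lay below it, and it was not called (adjusted p = 0.321). Without that library it was called, at -2.74 (adjusted p = 0.0153).

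Several of these genes are textbook targets of the let-7 microRNAs, whose sequences are printed because 1 seed is shared by nearly the whole family. In the RefSeq table (GRCm38.p6), 9 of 10 mature let-7 forms carry the seed GAGGUAG at bases 2 to 8, in capitals:
mmu-let-7a-5p: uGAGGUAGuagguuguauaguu
mmu-let-7b-5p: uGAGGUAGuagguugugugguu
mmu-let-7g-5p: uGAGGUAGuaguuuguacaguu
mmu-let-7i-5p: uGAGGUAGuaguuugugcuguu
The complement of this seed in messenger RNA is CTACCTC. Of the longest 3′ UTR of each tested gene in the GENCODE M21 annotation, 12.1% held it, with 12.8% among genes called higher and 12.5% among genes called lower. The UTR of Hmga2 held 4 sites and that of Igf2bp1 also 4, each shown with the 14 bases before and the 1 base after:
Hmga2, base 58 of the UTR: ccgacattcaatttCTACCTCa
Hmga2, base 1295 of the UTR: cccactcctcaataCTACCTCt
Hmga2, base 1733 of the UTR: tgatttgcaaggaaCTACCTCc
Hmga2, base 2591 of the UTR: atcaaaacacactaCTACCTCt
Igf2bp1, base 1715 of the UTR: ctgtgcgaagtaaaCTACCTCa
Igf2bp1, base 4136 of the UTR: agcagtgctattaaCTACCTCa
Igf2bp1, base 4730 of the UTR: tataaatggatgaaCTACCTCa
Igf2bp1, base 5353 of the UTR: cttttggttttaatCTACCTCt
The number of sites did not order the genes by their change. Nr6a1, a nuclear receptor named here after its values were seen, held 8 sites and was not called (0.68 ± 0.28, adjusted p = 0.0827), while Hmgb2 fell and held 0. The microRNAs themselves were not measured.

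Transcripts of neurons were higher at E16.5. The pan-neuronal list held 20 genes, of which 17 rose and 0 fell (median 1.36). Dcx, a microtubule protein of migrating neurons, had 454, 433 and 334 CPM at E13.5 and 1774, 1541 and 1532 CPM at E16.5, a log2 change of 1.99 ± 0.16 (SE; adjusted p = 1.54e-06). Mapt, which encodes tau, had 168, 124 and 108 CPM at E13.5 and 945, 875 and 1183 CPM at E16.5, a log2 change of 2.91 ± 0.29 (SE; adjusted p = 1.17e-05). Myt1l, a repressor of non-neuronal genes, was among the 12 genes with the smallest p, with 39, 26.8 and 37.9 CPM at E13.5 and 417, 315 and 327 CPM at E16.5, a log2 change of 3.35 ± 0.19 (SE; adjusted p = 1.09e-07). The summed level of the pan-neuronal list was 5386, 4697 and 4619 CPM at E13.5 and 12055, 11159 and 15419 CPM at E16.5, with the highest value in replicate 3 of E16.5. Whether they come from neurons within the strip or from tissue cut with it was not tested. Stmn2 and Snap25, of growing axons and of vesicle fusion, had their highest values in the same library, at 1103 and 327 CPM.

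Genes of both upper and deep cortical layers were higher at E16.5. The upper-layer list had 12 increases and 0 decreases among 14 genes (median 2.42). Of 14 deep-layer genes 8 rose and 1 fell (median 1.29). Cux2, a factor of upper layers and their progenitors, had 45.7, 39.8 and 56 CPM at E13.5 and 224, 181 and 208 CPM at E16.5, a log2 change of 2.12 ± 0.17 (SE; adjusted p = 1.81e-06). Mef2c, a factor of maturing neurons, changed by 4.6 ± 0.29. Inhba, which encodes a subunit of activin, was represented by 3 counts in the E13.5 libraries together and 1359 in those of E16.5, or 466 times as many after scaling (95% counting interval 159 to 2265).

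Among deep-layer genes, Bcl11b (Ctip2), the factor of neurons that project below the cortex, had 123, 100 and 112 CPM at E13.5 and 212, 208 and 306 CPM at E16.5, a log2 change of 1.11 ± 0.19 (SE; adjusted p = 0.000677). Tbr1, the factor of layer 6, had 152, 90.1 and 206 CPM at E13.5 and 305, 299 and 580 CPM at E16.5, a log2 change of 1.4 ± 0.29 (SE; adjusted p = 0.00253). Fezf2, which directs the fate of subcerebral neurons and is also expressed in early progenitors, was at 131, 98.7 and 180 CPM at E13.5 and 82.7, 76.8 and 141 CPM at E16.5 and was not called (adjusted p = 0.303). Hs3st4, a heparan sulfate enzyme of deep-layer neurons, was one of the 12 largest increases, with 2.8, 0.814 and 1.35 CPM at E13.5 and 67.7, 86.7 and 125 CPM at E16.5, a log2 change of 5.8 ± 0.4 (SE; adjusted p = 5.72e-07). Ldb2 and Nfe2l3 changed by 3.1 ± 0.35 and 3.87 ± 0.42, both with their highest value in replicate 3 of E16.5.

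Genes of the synapse and of electrical signalling were higher at E16.5. Of 24 genes of vesicles and release, 19 rose and none fell (median 1.39). Cplx1, which clamps vesicle fusion, had 8.15, 9.71 and 6.26 CPM at E13.5 and 48.4, 63 and 59.4 CPM at E16.5, a log2 change of 2.82 ± 0.2 (SE; adjusted p = 6.36e-07). Rab3a, the vesicle GTPase, changed by 1.76 ± 0.17 and Vamp2, a vesicle SNARE, by 1.47 ± 0.16. Slc17a6, the vesicular glutamate transporter VGLUT2, had 68, 44.1 and 78.4 CPM at E13.5 and 69, 66.6 and 96.8 CPM at E16.5 and was not called (adjusted p = 0.367). Of 27 glutamate and GABA receptor subunits 16 rose and 1 fell. Grin2b, the NMDA receptor subunit of young neurons, had 14.8, 8.9 and 12.1 CPM at E13.5 and 175, 152 and 246 CPM at E16.5, a log2 change of 3.99 ± 0.32 (SE; adjusted p = 1.82e-06), and Gria2, the AMPA subunit that blocks calcium entry, changed by 1.58 ± 0.34. Of 22 voltage-gated channels 16 rose and none fell. Kcnq3, of the M current, had 20.9, 10.6 and 22.3 CPM at E13.5 and 145, 128 and 120 CPM at E16.5, a log2 change of 2.86 ± 0.24 (SE; adjusted p = 2.09e-06), and Scn2a, a sodium channel of the young axon, changed by 3.32 ± 0.42.

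Among adhesion and guidance genes, 11 of 21 cadherins and protocadherins rose, led by Cdh12 with 0.363, 0.217 and 0.351 CPM at E13.5 and 15.7, 19.1 and 23.9 CPM at E16.5, a log2 change of 5.95 ± 0.37 (SE; adjusted p = 2.26e-07). Of 34 axon guidance genes 14 rose and 4 fell. Robo3, which lets axons cross the midline, fell from 31.7, 40.5 and 59.5 CPM at E13.5 to 0.184, 0.407 and 0.174 CPM at E16.5, a log2 change of -7.36 ± 0.66 (SE; adjusted p = 4.34e-06). Its relatives Robo1 and Robo2 rose, Robo2 with 103, 56.4 and 94.2 CPM at E13.5 and 490, 471 and 558 CPM at E16.5, a log2 change of 2.58 ± 0.2 (SE; adjusted p = 1.15e-06). Cntn2, an adhesion molecule of early axons, had 207, 118 and 287 CPM at E13.5 and 1324, 1097 and 595 CPM at E16.5, a log2 change of 2.3 ± 0.32 (SE; adjusted p = 0.000128). Dcc, the netrin receptor, had 137, 139 and 144 CPM at E13.5 and 149, 124 and 211 CPM at E16.5 and was not called (adjusted p = 0.437).

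Regulators of splicing and chromatin subunits also changed. Ptbp1, the splicing repressor of non-neuronal cells, had 375, 365 and 276 CPM at E13.5 and 197, 183 and 104 CPM at E16.5, a log2 change of -1.07 ± 0.23 (SE; adjusted p = 0.00281). Rbfox1, a splicing factor of neurons, had 12.4, 7.43 and 6.84 CPM at E13.5 and 126, 110 and 168 CPM at E16.5, a log2 change of 3.92 ± 0.24 (SE; adjusted p = 1.76e-07), and 11 of 18 splicing regulators rose while 1 fell. The BAF chromatin remodelling complex exchanges subunits when progenitors become neurons. Of its progenitor subunits, Actl6a (BAF53A) fell, with 115, 120 and 107 CPM at E13.5 and 61.1, 68.9 and 38.9 CPM at E16.5, a log2 change of -1.02 ± 0.2 (SE; adjusted p = 0.00149). Of its neuronal subunits, Actl6b (BAF53B) rose, with 25.4, 18.5 and 30.1 CPM at E13.5 and 71.7, 77.6 and 86.3 CPM at E16.5, a log2 change of 1.67 ± 0.23 (SE; adjusted p = 0.00011), as did Ss18l1 (CREST) at 1.6 ± 0.17 and Dpf1 (BAF45B) at 1.26 ± 0.14.

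Of the 12 genes with the smallest p, Id4 fell and all the others rose. Clstn2, a synaptic cadherin-like protein, had 5.09, 6.84 and 6.78 CPM at E13.5 and 138, 135 and 175 CPM at E16.5, a log2 change of 4.58 ± 0.2 (SE; adjusted p = 3.2e-08). Nav3 and Nav2, microtubule proteins of growing neurites, changed by 3.2 ± 0.14 and 3.49 ± 0.18, and Adcy1, the calcium-stimulated adenylyl cyclase, by 4.05 ± 0.19. Dync1i1, the intermediate chain of neuronal dynein, had 1.51, 0.597 and 1.75 CPM at E13.5 and 93, 112 and 180 CPM at E16.5, a log2 change of 6.64 ± 0.38 (SE; adjusted p = 1.18e-07). Over these 5 genes the highest E13.5 value was 22.1 CPM, of Nav2, and the lowest E16.5 value was 93 CPM, of Dync1i1.

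Genes called higher were also longer. The annotated gene span had a median of 45.7 kb among genes called higher and 20.8 kb among genes called lower. Spans over 200 kb made up 14% of the genes called higher, 3.57% of those called lower and 5.55% of all genes tested. Spans include introns, so they are not the length that counts are drawn from, and the sets were not matched on expression.

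**Figure D3:**
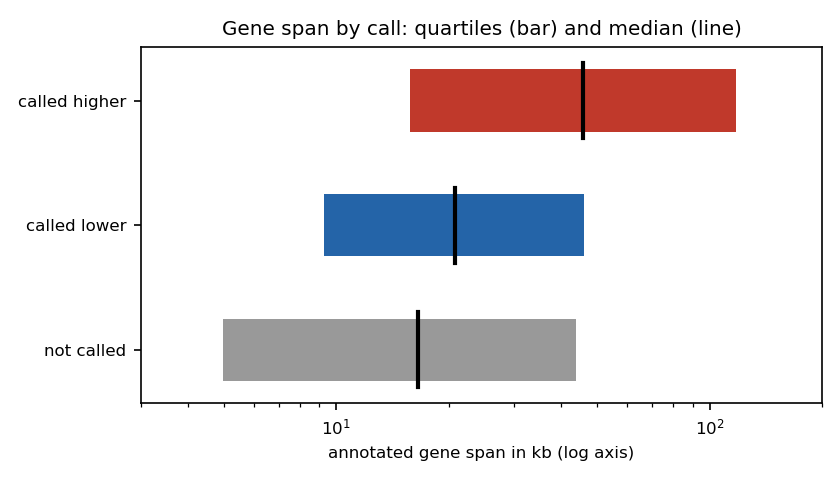
Annotated gene span in kb on a log axis (x) for genes called higher, called lower and not called (rows). Bars run from the lower to the upper quartile and lines mark medians, which are 45.7 kb for genes called higher and 20.8 kb for genes called lower.

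Glial genes moved in both directions. Of 17 transcription factors linked to gliogenesis 6 rose and 6 fell. Nfia, which starts the gliogenic programme, was already at 484, 408 and 624 CPM at E13.5 and 480, 403 and 540 CPM at E16.5 and was not called (adjusted p = 0.796). Nfix had 499, 498 and 379 CPM at E13.5 and 1553, 1122 and 822 CPM at E16.5, a log2 change of 1.35 ± 0.3 (SE; adjusted p = 0.00407), and Nfib rose by 0.96 ± 0.21. Sox9, which acts with NFIA, fell from 137, 149 and 101 CPM at E13.5 to 59.8, 42.7 and 37 CPM at E16.5, a log2 change of -1.47 ± 0.22 (SE; adjusted p = 0.000194). Etv5, an ETS factor downstream of FGF and ERK, had 17.2, 18.6 and 13.9 CPM at E13.5 and 72.9, 72.6 and 77.8 CPM at E16.5, a log2 change of 2.17 ± 0.19 (SE; adjusted p = 3.88e-06), and Etv1 and Etv4 rose by 1.57 ± 0.16 and 2.05 ± 0.39. Zbtb20, a repressor that favours late progenitor fates, rose by 0.76 ± 0.21, and missed the threshold without replicate 3 of E13.5 (adjusted p = 0.064) or replicate 1 of E16.5 (adjusted p = 0.0773). Nr2f2 (COUP-TFII) had 98.1, 72.6 and 35.2 CPM at E13.5 and 14.4, 11 and 11.6 CPM at E16.5, a log2 change of -2.48 ± 0.66 (SE; adjusted p = 0.0114).

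Of 24 astrocyte genes tested, 7 rose and 4 fell (median 0.47). Aldh1l1, a folate enzyme used as a pan-astrocyte marker, had 3.22, 4.72 and 2.75 CPM at E13.5 and 17, 20.3 and 16.7 CPM at E16.5, a log2 change of 2.34 ± 0.23 (SE; adjusted p = 1.12e-05). Sparcl1, a secreted synapse-promoting protein, had 42.5, 28.1 and 28.8 CPM at E13.5 and 82.6, 111 and 143 CPM at E16.5, a log2 change of 1.76 ± 0.2 (SE; adjusted p = 2.99e-05). Gfap, the intermediate filament of astrocytes, had no count at E13.5 and 50 counts over the E16.5 group, which is at least 17.2-fold higher when 3 counts over the group are taken as the floor. These bounds and intervals cover counting error only. Aqp4, the water channel of mature astrocytes, was at 1.56, 2.28 and 0.643 CPM at E13.5 and 0.982, 1.88 and 4.11 CPM at E16.5 and was not called. Among the members that fell, Fgfr3 had 323, 250 and 215 CPM at E13.5 and 69.4, 40.2 and 13.1 CPM at E16.5, a log2 change of -2.68 ± 0.41 (SE; adjusted p = 0.00026), Gja1, connexin 43, changed by -1.99 ± 0.26, and Ttyh1 by -1.73 ± 0.17.

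Of 10 oligodendrocyte lineage genes 5 rose and 1 fell. Olig1 had 1.25, 1.14 and 0.819 CPM at E13.5 and 7.92, 9.56 and 11.7 CPM at E16.5, a log2 change of 3.18 ± 0.35 (SE; adjusted p = 2e-05). Olig2, its partner, had 6.13, 15.7 and 4.09 CPM at E13.5 and 4.91, 4.22 and 9.33 CPM at E16.5, with the highest value in replicate 2 of E13.5, and was not called (adjusted p = 0.423). Pdgfra, the receptor of oligodendrocyte precursors, had 9.29, 7.33 and 7.19 CPM at E13.5 and 15, 17 and 15.1 CPM at E16.5, which did not overlap, and just missed the threshold (adjusted p = 0.0519). It was called in 6 alternatives, namely DESeq2, no filter on low counts, a stricter filter (mean CPM 5), the replicate block, the 6 libraries alone and the Y-linked covariate, with adjusted p from 0.00485 to 0.0442.

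Signals that push progenitors towards astrocytes pass through the gp130 receptors and JAK-STAT. The receptor subunit Cntfr fell from 126, 130 and 143 CPM at E13.5 to 37.3, 32.6 and 32.7 CPM at E16.5, a log2 change of -1.96 ± 0.13 (SE; adjusted p = 5.17e-07), and the shared subunit Il6st (gp130) was not called (-0.33 ± 0.23). Jak2 rose, with 46.2, 43.5 and 39 CPM at E13.5 and 90.6, 96.2 and 114 CPM at E16.5, a log2 change of 1.23 ± 0.14 (SE; adjusted p = 2.25e-05), Jak1 rose by 0.66 ± 0.16, and Stat3 fell, with 31.7, 29.6 and 15.9 CPM at E13.5 and 16.9, 13.1 and 7.24 CPM at E16.5, a log2 change of -1.05 ± 0.34 (SE; adjusted p = 0.0309). Stat3 was not called without replicate 1 or 2 of E13.5 or without replicate 2 or 3 of E16.5, where its adjusted p ran from 0.0688 to 0.124. Its call was also lost with the 6 libraries alone (adjusted p = 0.0535), the Y-linked covariate (adjusted p = 0.0658) and the ribosomal RNA covariate (adjusted p = 0.0522).

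In the other pathways the changes were these. Of 14 FGF and ERK response genes 5 rose and 3 fell; the feedback inhibitors Dusp6, Spry2 and Spred2 rose by 1.95 ± 0.31, 1.43 ± 0.24 and 0.72 ± 0.12, while the ligand Fgf15 had 7.58, 8.52 and 2.16 CPM at E13.5 and 0.491, 0 and 0.232 CPM at E16.5, a log2 change of -4.68 ± 1.2 (SE; adjusted p = 0.00921). Fgf15 was not called by limma-voom (-5.24, adjusted p = 0.204). Of 25 Wnt genes 12 fell and 1 rose. The pathway's general target Axin2 had 51.9, 72.8 and 37.6 CPM at E13.5 and 23.9, 20.4 and 12.9 CPM at E16.5, a log2 change of -1.51 ± 0.27 (SE; adjusted p = 0.000802). The nuclear effectors Lef1 and Tcf7l1 fell, Lef1 with 47.1, 63.4 and 34.3 CPM at E13.5 and 7.67, 2.75 and 4.81 CPM at E16.5, a log2 change of -3.26 ± 0.37 (SE; adjusted p = 2.87e-05), and Tcf7l1 with 99.3, 78.5 and 87.2 CPM at E13.5 and 17.3, 15.4 and 7.42 CPM at E16.5, a log2 change of -2.73 ± 0.27 (SE; adjusted p = 9.28e-06). Axin2 and Lef1, but not Tcf7l1, were highest in replicate 2 of E13.5, the library with the most Wnt8b and Rspo1. Of 20 BMP and ID genes 3 rose and none fell, a share of 15% that is below the background of 29.8%. Among them Id2 had 45.9, 44.4 and 73.8 CPM at E13.5 and 209, 265 and 463 CPM at E16.5, a log2 change of 2.52 ± 0.32 (SE; adjusted p = 5.95e-05). Id4 was counted in the radial glia list and not in this one, and it fell (-2.67 ± 0.15). With DESeq2, 4 genes of the BMP and ID list rose and 1 fell. With the replicate block, 3 rose and 2 fell. Of 10 hedgehog genes 5 fell, including the signal transducer Smo at -1.53 ± 0.19 and the co-receptor Boc at -1.16 ± 0.19, and the target Gli1 was not called (0.55 ± 0.45). The number of hedgehog genes that fell was 3 without any 1 of replicates 2 and 3 of E13.5 and replicates 2 and 3 of E16.5.

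Chromatin and metabolic genes fell more often than they rose. Of 17 Polycomb genes 8 fell and 2 rose; Ezh2, the methyltransferase of PRC2, had 279, 275 and 271 CPM at E13.5 and 195, 208 and 148 CPM at E16.5, a log2 change of -0.58 ± 0.14 (SE; adjusted p = 0.00587), and Suz12, another core subunit, changed by -1.27 ± 0.13. Of 12 genes of DNA methylation 6 fell, including Uhrf1, which brings DNMT1 to replicated DNA, at -1.48 ± 0.25. Of 20 glycolysis and hypoxia genes 14 fell and 2 rose. Ldha, lactate dehydrogenase A, had 428, 522 and 334 CPM at E13.5 and 166, 204 and 149 CPM at E16.5, a log2 change of -1.31 ± 0.2 (SE; adjusted p = 0.000264). The hexokinases went opposite ways: Hk2, the isoform of proliferating cells, had 56.2, 74.1 and 48.1 CPM at E13.5 and 20.1, 13.7 and 12.6 CPM at E16.5, a log2 change of -1.94 ± 0.28 (SE; adjusted p = 0.000165), and Hk1, the main isoform of brain, had 41.4, 35.4 and 29.4 CPM at E13.5 and 106, 89.8 and 99.2 CPM at E16.5, a log2 change of 1.47 ± 0.19 (SE; adjusted p = 6.59e-05). Gapdh fell by 1.10 on the log2 scale; its many pseudogene copies share reads with it, so its count is uncertain.

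Genes of ribosome biogenesis were mostly lower. Of 21 nucleolar genes 13 fell and 1 rose, among them Npm1, nucleophosmin, with 1078, 1114 and 1329 CPM at E13.5 and 507, 599 and 874 CPM at E16.5, a log2 change of -0.83 ± 0.18 (SE; adjusted p = 0.00373). The number that fell was 6 without replicate 2 of E13.5 and 9 without replicate 2 of E16.5. Of 79 cytosolic ribosomal protein genes only 5 were called, or 6.33%, against the background of 29.8%, with a median of -0.26. The number called was 2 without any 1 of replicates 1, 2 and 3 of E13.5 or replicate 1 of E16.5, and 8 without replicate 3 of E16.5, with the replicate block and with the ribosomal RNA covariate. All 5 fell, among them Rps2, with 925, 978 and 984 CPM at E13.5 and 537, 673 and 502 CPM at E16.5, a log2 change of -0.75 ± 0.17 (SE; adjusted p = 0.00348). Ribosomal protein genes also have many near-identical copies. Of 18 imprinted genes 6 fell and 1 rose (38.9% called, against the background of 29.8%). Without replicate 1 or without replicate 2 of E13.5, 3 of these genes fell and 1 rose. Among them Grb10, a brake on growth factor receptors, had 748, 756 and 444 CPM at E13.5 and 272, 247 and 123 CPM at E16.5, a log2 change of -1.6 ± 0.28 (SE; adjusted p = 0.000757), and Plagl1, a factor of the imprinted network, changed by -1.55 ± 0.19, while Igf2 had 164, 108 and 84.9 CPM at E13.5 and 88.5, 139 and 79.9 CPM at E16.5 and was not called (adjusted p = 0.638).

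Transcripts of other cells were looked at because a dissected strip holds vessels, blood and neighbouring tissue. Of 6 pericyte genes 4 rose and none fell; Rgs5 had 34.8, 25.8 and 31.1 CPM at E13.5 and 99.3, 112 and 112 CPM at E16.5, a log2 change of 1.82 ± 0.16 (SE; adjusted p = 4.27e-06). Of 15 endothelial genes 2 rose and none fell (median 0.01), a share of 13.3% that is below the background of 29.8%. Cldn5, the tight junction protein of the blood-brain barrier, had 9.71, 8.03 and 9.07 CPM at E13.5 and 20.1, 26.8 and 26.7 CPM at E16.5, a log2 change of 1.46 ± 0.2 (SE; adjusted p = 0.000102), and Slco1c1, its thyroxine transporter, had 0.779, 5.53 and 1.35 CPM at E13.5 and 30.7, 34 and 41.4 CPM at E16.5, a log2 change of 3.79 ± 0.59 (SE; adjusted p = 0.000284), while the general marker Pecam1 was not called (-0.15 ± 0.22, adjusted p = 0.648). Of 15 microglia and macrophage genes 3 rose and 1 fell (26.7% called, near the background of 29.8%). Without replicate 3 of E13.5, 1 rose and 1 fell. The summed level of this list was 253, 237 and 271 CPM at E13.5 and 145, 156 and 105 CPM at E16.5. The defining genes Cx3cr1 and Csf1r were not called. Cx3cr1 had 5.61, 6.51 and 7.49 CPM at E13.5 and 7.43, 10.4 and 5.85 CPM at E16.5. Csf1r had 5.19, 6.84 and 7.19 CPM at E13.5 and 9.21, 11.5 and 5.74 CPM at E16.5. P2ry12, a purine receptor of maturing microglia, rose by 1.82 ± 0.34.

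Globin genes of red blood cells were also found. The embryonic globins Hbb-y, Hba-x and Hbb-bh1 fell by 8.69, 6.48 and 6.18 on the log2 scale, Hbb-bh1 with 8.15, 6.89 and 6.08 CPM at E13.5 and 0, 0.254 and 0 CPM at E16.5. The adult gene Hbb-bt was at 106, 157 and 88.9 CPM at E13.5 and 134, 161 and 107 CPM at E16.5 and was not called (adjusted p = 0.64). Adult globin genes are near-identical pairs whose reads the authors' estimates share, so their split is uncertain.

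Some genes of the medial wall and meninges fell. Wnt8b, a ligand of the cortical hem, had 6.23, 22.7 and 7.72 CPM at E13.5 and 0, 0 and 0 CPM at E16.5, at least 217-fold lower against the floor of 3 counts over the group. Rspo1, a secreted enhancer of Wnt signalling, had 4.15, 14.2 and 2.4 CPM at E13.5 and 0.307, 0 and 0 CPM at E16.5, a log2 change of -6.07 ± 1.32 (SE; adjusted p = 0.00332). Both were highest in replicate 2 of E13.5, which also had the most Ttr of the E13.5 libraries, the transthyretin of the choroid plexus (10, 317 and 124 CPM at E13.5 and 275, 439 and 172 CPM at E16.5), and the most Otx2 (6.59, 37.4 and 4.97 CPM at E13.5 and 2.09, 3.92 and 1.16 CPM at E16.5). Otx2 was called lower, at -2.76 ± 0.93 (adjusted p = 0.0369), but not without replicate 2 of E13.5 (-1.26, adjusted p = 0.306), nor without replicate 1, 2 or 3 of E16.5, where its adjusted p was 0.099, 0.0519 and 0.108. It was not called by limma-voom either (-2.3, adjusted p = 0.244). Lhx9, a LIM homeobox factor, had 83.2, 112 and 57.1 CPM at E13.5 and 5.1, 0.509 and 1.91 CPM at E16.5, a log2 change of -5.1 ± 0.81 (SE; adjusted p = 0.000362). Of 15 Cajal-Retzius and hem genes 5 fell (33.3%, near the background of 29.8%), a number that was between 2 and 4 when any 1 library was left out, and Reln itself was not called (0.57 ± 0.27) but was called higher without replicate 3 of E16.5 (0.78, adjusted p = 0.0431) and with no filter on low counts (0.61, adjusted p = 0.00846). Of 13 meningeal and fibroblast genes 4 fell (30.8%, also near the background). Col3a1 had 90.9, 55.2 and 74.3 CPM at E13.5 and 18.9, 37 and 30.1 CPM at E16.5, a log2 change of -1.36 ± 0.36 (SE; adjusted p = 0.0115). The summed level of the meningeal list was 304, 195 and 272 CPM at E13.5 and 98.2, 167 and 135 CPM at E16.5, with 0 of its genes at 0 in either stage. Of 17 genes of the ventral telencephalon 4 fell and 2 rose (35.3% called, also near the background). Dlx2 had 41.1, 87.1 and 28.1 CPM at E13.5 and 26, 19.1 and 24.3 CPM at E16.5, highest again in replicate 2 of E13.5, a log2 change of -1.17 ± 0.32 (SE; adjusted p = 0.0134). It was not called without that library (-0.58, adjusted p = 0.0808) or without replicate 2 of E16.5 (-1.05, adjusted p = 0.0585). Without replicate 2 of E16.5 the ventral list had 1 decrease and 2 increases.

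**Figure D4:**
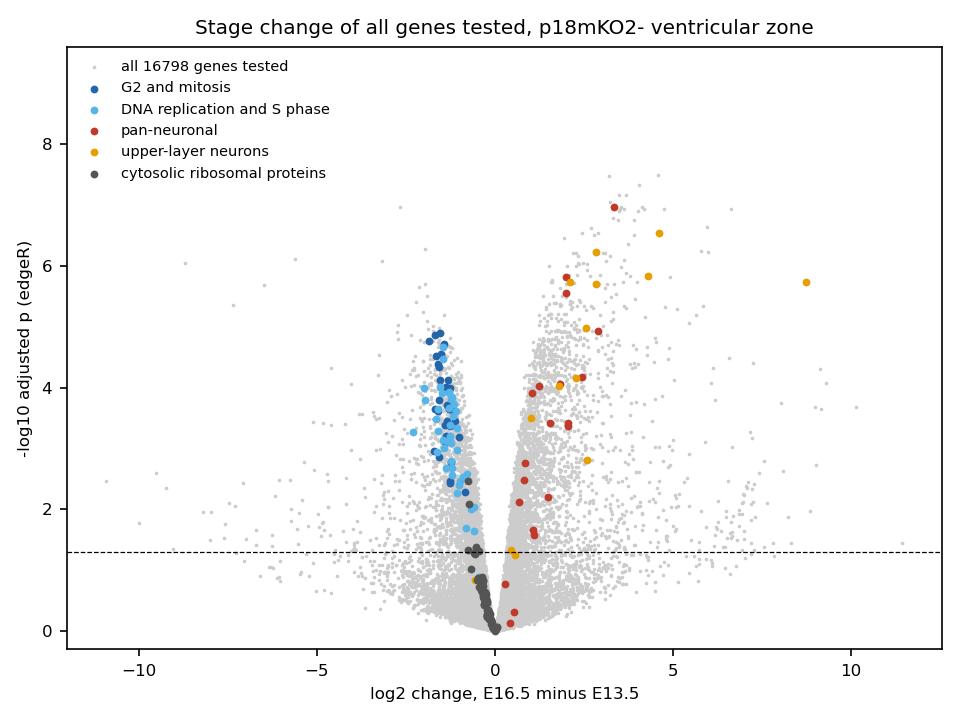
Log2 change from E13.5 to E16.5 (x) against -log10 of the edgeR adjusted p (y) for the 16798 genes tested, in grey, with 5 lists in colour. The dashed line marks an adjusted p of 0.05; G2 and S phase genes lie on the left, pan-neuronal and upper-layer genes on the right, and most ribosomal protein genes under the line.

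The same interval was compared with that of the p18mKO2+ libraries, which share none of these 6 samples. The p18mKO2+ libraries also differed from them in other ways. Their 4 Y-linked genes summed to 0, 179.787 and 95.388 CPM before TMM at E13.5 and 142.4, 195.646 and 81.819 CPM at E16.5. CT010467.1 took 2.81% to 6.637% of their counts at E13.5 and 1.786% to 3.971% at E16.5. In p18mKO2+ 275 genes (1.64%) were called between E13.5 and E16.5, against 29.8% here. A direct test of the difference, (E16.5 minus E13.5 in p18mKO2+) minus (E16.5 minus E13.5 in p18mKO2-), called 453 genes, or 2.7%. Without replicate 2 of E13.5 p18mKO2- it called 246. With Y-linked expression as a covariate it called 295, and with the ribosomal RNA level as a covariate 643. Of the 453 genes, 451 were called for stage in p18mKO2-. Among the 451, the change in p18mKO2+ was smaller in the same direction for 414 and opposite in sign for 37. The tested difference contains the p18mKO2- stage change itself, so these counts are partly built in and are no independent evidence. Dcx changed by 1.99 ± 0.16 in p18mKO2- and by 0.46 ± 0.15 in p18mKO2+, a difference of -1.53 ± 0.22 (adjusted p = 0.00241). Hes5 changed by -2.48 ± 0.23 and -1.16 ± 0.22 (difference 1.32 ± 0.32, adjusted p = 0.0412), and Tnc by 4.01 ± 0.23 and 2.15 ± 0.21 (difference -1.86 ± 0.3, adjusted p = 0.00572). For Mki67 the changes were -1.42 ± 0.15 and -0.67 ± 0.15 and the difference missed the threshold (adjusted p = 0.0827). Of the 313 named genes tested, 75 were called for the difference. Most named genes were picked for their change in p18mKO2-, so their smaller change in the other genotype is a description and no independent evidence.

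**Figure D5:**
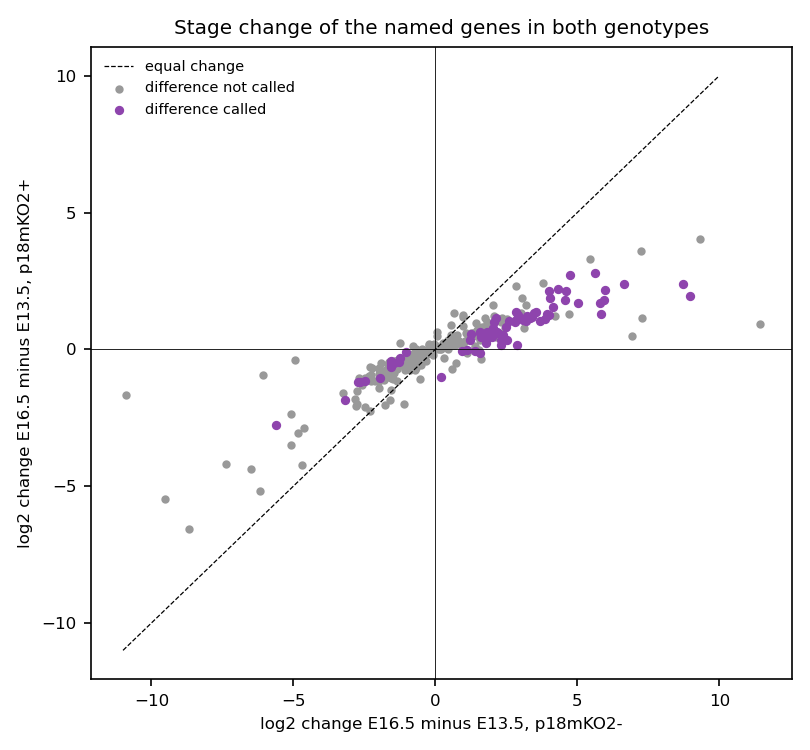
Log2 change from E13.5 to E16.5 in p18mKO2- (x) and in p18mKO2+ (y) for the 313 named genes tested. Purple marks the 75 genes whose difference was called and the dashed line marks equal change; most points lie nearer 0 on the y axis than on the x axis.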

How the data were processed

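The report uses 6 RNA-seq libraries of dissected ventricular zone, and the 6 p18mKO2+ libraries entered the fit to estimate the spread. Per the submitters' processing notes, reads were handled with cutadapt 3.4, STAR 2.7.2b and RSEM 1.2.31 on GRCm38 (mm10). Per the file headers, the authors deposited an expected count and a TPM value for each gene, with no pooling of replicates. Neither the release of the annotation nor the strandedness of counting is given in the sources used here, so overlapping and antisense genes may share reads.

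Expected counts were rounded to whole numbers. Genes were filtered with filterByExpr, libraries scaled by TMM, and the 12 libraries fitted as 4 groups of 3 with edgeR 4.0.16 (quasi-likelihood F test, R 4.3.3). P-values were adjusted by Benjamini-Hochberg over 16798 genes. The fit had 8 residual degrees of freedom and a common biological coefficient of variation of 0.311. The standard error is the absolute log2 change divided by the square root of F. The deposited TPM was used only for a minimum of 5 in choosing genes.

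The 50 gene lists (877 distinct genes tested) and the members were chosen with earlier results of these data known. Named genes were the key members of each list, in each list up to 4 called genes by smallest p and up to 4 by largest change, and over all genes the 12 largest increases, the 12 largest decreases and the 12 smallest p. Orc6, Nr6a1 and Xist are outside this rule. Same-numbered replicates of the stages correlated at 0.02, 0.10 and 0.20 in their deviations, and differently numbered ones at -0.15 to 0.07. Some structure shared by replicate number is therefore visible. Because the labels state no pairs, the numbers were not taken as pairs in the main fit. The fit was tested on simulated data. Alternatives were other size factors, DESeq2 1.42.0, limma-voom 3.58.1, other filters, a replicate block, the 6 libraries alone, covariates and each library left out. Figures were drawn with matplotlib 3.10.9. A few genes are not reported here.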

Additional observations from a re-analysis of the deposited data

Results flagged for a closer look

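The stage change of the following genes differed between the genotypes by edgeR's interaction test, an adjusted p under 0.05 over all genes tested. Of the 164 genes of the text that were tested, 43 were called, against 2.7% of all genes tested. Most of these genes were named for their change in p18mKO2-, which enters the difference, so the count is no independent evidence. The value given is the log2 stage change in p18mKO2+ minus that in p18mKO2-.

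For genes of neurons that rose in p18mKO2-, the change in p18mKO2+ was smaller in the same direction: Inhba (-6.34), Dync1i1 (-4.24), Cdh12 (-4.15), Hs3st4 (-4.1), Clstn2 (-2.79), Nfe2l3 (-2.77), Mef2c (-2.47), Myt1l (-2.19), Adcy1 (-2.17), Nav2 (-2.17), Nav3 (-2.15), Cntn2 (-2.13), Ldb2 (-2.03), Mapt (-1.66), Dcx (-1.53), Robo2 (-1.53) and Cux2 (-0.96). Among genes of synapses, receptors, channels, splicing and BAF the values were Grin2b (-2.76), Kcnq3 (-2.69), Rbfox1 (-2.6), Cplx1 (-1.83), Rab3a (-1.36) and Ss18l1 (-1.15). Other genes that rose in p18mKO2- and changed less in p18mKO2+ were Tnc (-1.86), Etv5 (-1.52), Rgs5 (-1.2), Etv1 (-0.95), Jak2 (-0.87) and Ptprz1 (-0.69).

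Genes of progenitors, the cell cycle and signalling that fell in p18mKO2- also changed less in p18mKO2+: Tcf7l1 (1.52), Id4 (1.48), Hmga2 (1.33), Hes5 (1.32), Plagl1 (1.14), Ccnb2 (1.07), Emx2 (0.99), Sox2 (0.94), Cntfr (0.93), Kif23 (0.9) and Suz12 (0.81). Bcl11b had stage changes of 1.11 in p18mKO2- and -0.03 in p18mKO2+, a difference of -1.15. Dcc had stage changes of 0.2 in p18mKO2- and -1.0 in p18mKO2+, a difference of -1.21. Fat4 had stage changes of 0.95 in p18mKO2- and -0.07 in p18mKO2+, a difference of -1.02.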

How the results depend on the processing

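Under the alternatives that kept all 6 libraries, the number of genes called between the stages ran from 3644 (the 6 libraries alone) to 5700 (DESeq2) around 5005, and 53.3% to 59.7% of the called genes were higher. Leaving out 1 library gave 4103 to 4631 genes, and kept 253 to 263 of the 278 called named genes and 411 to 436 of the 480 called list genes. The test of the difference between genotypes moved most, from 453 genes to 1122 with DESeq2, 1168 with no filter on low counts, 767 with the replicate block and 295 when Y-linked expression was a covariate, and to 246 to 453 with 1 library left out. The replicate block called 5526 genes for stage and 277 named genes; the pairing by number is not stated in the labels. The causes of these shifts were not tested.

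The genes of the text that changed sign were not called with all libraries. With 1 library left out, Cdkn2c ran from -0.31 to 0.23, Mycn from -0.22 to 0.08, Nfia from -0.22 to 0.09, Hopx from -0.17 to 0.22, Aqp4 from -0.05 to 1.07, Dcc from -0.03 to 0.36, Igf2 from -0.49 to 0.10, Pecam1 from -0.36 to 0.11 and Olig2 from -0.91 to 0.27. Cdkn2c was at 0.03 and Mycn at 0.01 with no filter, Mycn at 0.02 and Nfia at 0.00 with the Y-linked covariate, and Hopx at -0.05 with the ribosomal RNA covariate. Eif2s3y lost its call without any 1 of replicates 1, 2 and 3 of E13.5 or replicate 2 of E16.5.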
